A study of Rattus norvegicus with 2 samples.

Results

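The NADPH oxidase genes examined were Cybb, Cyba, Ncf1 and Ncf4, which encode subunits of the phagocyte enzyme, and Nox1 and Nox4, which encode catalytic subunits used mainly by cells other than phagocytes. They were chosen by name, as the genes whose symbol, old or current, stands in brackets in the annotation of the array. All 6 genes were found, on 7 of 26419 array sequences, among 24210 genes in all. Ncf4 had 2 sequences, both annotated under the old name LOC500904, and the other genes had 1 each. Every sequence was read by 5 probes.

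Gene expression was measured on NimbleGen rat arrays with a single dye, Cy3. One array held RNA of bone mesenchymal stem cells (BMSCs) kept in DMSO, the solvent control. The other came from BMSCs given icariin, a flavonoid of the herb Epimedium. Per the methods, the cells were adherent cells flushed from femur and tibia marrow of 4-week-old Sprague–Dawley rats, used at early passage and exposed to 20 μM icariin for 1 day. The labels call the donors female and the methods describe male rats. Neither source gives a cell sort, so other adherent marrow cells could be present. There was 1 array per condition and thus no replicate for any difference, and "higher" and "lower" describe the icariin array against the DMSO array.

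An NADPH oxidase moves electrons from NADPH across a membrane onto oxygen and so makes superoxide or hydrogen peroxide. In phagocytes the catalytic subunit Cybb (gp91phox, also called Nox2) is held in the membrane by Cyba (p22phox). Cytosolic subunits, Ncf1 and Ncf4 among them, join on activation, together with a Rac GTPase. Loss of Cybb, Cyba, Ncf1 or Ncf4 in humans causes chronic granulomatous disease, in which the oxidative burst of phagocytes is lost or impaired. Nox1, known from colon epithelium and vascular smooth muscle, and Nox4, known from kidney, fibroblasts and vessel wall, also pair with Cyba. Nox1 uses the organiser Noxo1 and the activator Noxa1, whereas Nox4 needs no cytosolic subunit.

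To tell measured genes from background, the odorant and pheromone receptors (1425 olfactory or vomeronasal genes) served as genes presumed silent in BMSCs. The 95th percentile of their intensities, 148 with DMSO and 168 with icariin, is called the silent-gene level. Probes of random sequence read 73.8 and 78.4. Intensities are linear RMA values, and the level of 1 gene was not ranked against that of another, because probes differ in brightness. A ratio whose dimmer value was not above the silent-gene level is written "at least", after values below 168 were raised to it.

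In the icariin-treated BMSCs, transcripts of the phagocyte subunits Cybb and Ncf4 were higher, those of Cyba and Ncf1 were nearly level, and Nox1 and Nox4 were not above the silent-gene level on either array. By a 2-fold rule, 2 of the 6 genes were higher and none was lower. The same rule called 6.51% of all 24210 genes higher and 7.01% lower. Among the 9255 genes above the silent-gene level on both arrays, which include Cybb, Cyba and Ncf1, these shares were 2.96% and 4.39%. The shares over all genes are also the background for the list counts below, but only for those on values as read. No such share is given for values raised to the silent-gene level, so the counts on raised values stand without a background.

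**Figure D1:**
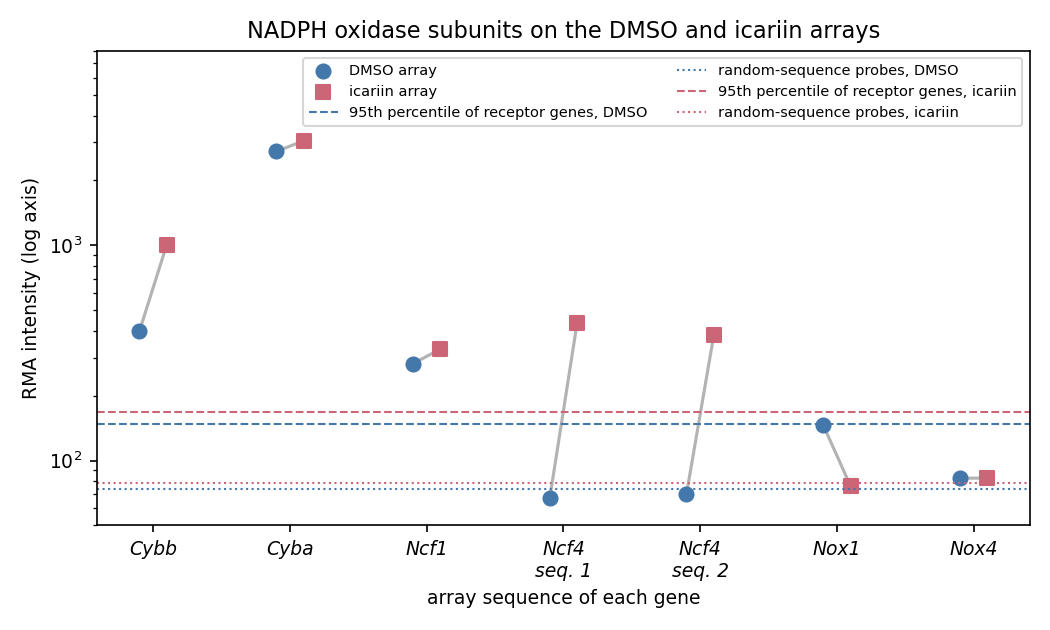
RMA intensity (log axis) of each array sequence of the 6 genes, with a circle for the DMSO array and a square for the icariin array, 1 array each. Dashed lines mark the silent-gene level (148 and 168) and dotted lines the random-sequence probes (73.8 and 78.4). Cybb and both Ncf4 sequences stand higher on the icariin array, and Nox1 and Nox4 lie at or under the dashed lines on both.

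Cybb, the catalytic subunit, had an intensity of 398 with DMSO and 1007 with icariin. Both values stood clear of background, at 2.69 and 5.98 times the silent-gene level. The ratio was 2.53, a log2 difference of 1.34, and 2.75% of all genes had a larger difference. Genes as bright as Cybb seldom differed this much upward: in the ninth decile of genes by mean level, 2.40% passed the 2-fold rule upward and 5.58% downward.

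Cyba, the membrane partner shared by Cybb, Nox1 and Nox4, read 2725 and 3052. It was 18.4 and 18.1 times the silent-gene level, bright on both arrays. Its log2 difference was 0.16, a ratio of 1.12. The membrane pair thus differed unequally, with a log2 difference for Cybb that was 1.17 larger than that for Cyba.

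Ncf1 (p47phox), the organiser that is phosphorylated on activation and docks onto Cyba, read 282 and 329. These were 1.90 and 1.95 times the silent-gene level. Its log2 difference was 0.22, a ratio of 1.17. Ncf1, like Cyba, was measured on both arrays and differed far less than 2-fold.

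Ncf4 (p40phox), which binds the membrane lipid PI3P and serves the burst on phagosomes, was dim on the DMSO array and measured on the icariin array. Its first sequence read 66.7 and 434, and its second 69.8 and 383. Both sequences moved the same way and by similar amounts, with log2 differences of 2.70 and 2.46. They are annotated to the same gene with coding regions of equal length (1020 bases), so they may not be independent readings. Both DMSO values lay below the random-sequence probes, so the size of the difference rests on background there. The mean of the sequences was 68.2 and 408, which is at least 2.42-fold higher, a log2 difference of at least 1.28. The log2 difference of the values as read, 2.58, is taken against a background reading and is no measure of its size. Ncf4 lay in the sixth decile of genes by level, where 10.5% were at least 2-fold higher.

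Nox4 read 82.7 and 82.9. Of the receptor genes, 63.4% (DMSO) and 62.5% (icariin) were dimmer than Nox4, so it stood within the range of genes taken as silent. Nox1 read 146 and 76.0, just under the silent-gene level on the DMSO array and near the random-sequence probes on the icariin array. Its log2 difference was -0.94, but no fold is given because neither value was above background. In the decile of its level, the fourth, 8.55% were at least 2-fold lower. At this signal neither a presence nor a change of Nox1 and Nox4 transcripts was detectable. Each was read by 1 sequence, whose response was not tested.

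Set against each other, the 4 phagocyte subunits had a mean log2 difference 0.75 above that of Nox4 and Nox1 when values were raised to the silent-gene level, where both Nox genes stand at 0. On the values as read the gap was 1.55, and 1.07 against Nox4 alone and 2.02 against Nox1 alone. These larger gaps use background readings of Nox1 and Nox4 on both arrays and of Ncf4 with DMSO, so they are not measured sizes. Genes are not replicates, so the gap describes these 2 arrays and was not tested. As a yardstick of probe error, sequences of 1 gene differed in their log2 difference with a pooled SD of 0.61 over the 1956 genes with more than 1 sequence. The differences of Cyba and Ncf1 lay within this SD and that of Cybb and the bound for Ncf4 beyond it, though the yardstick holds nothing of the spread between cultures.

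**Figure D2:**
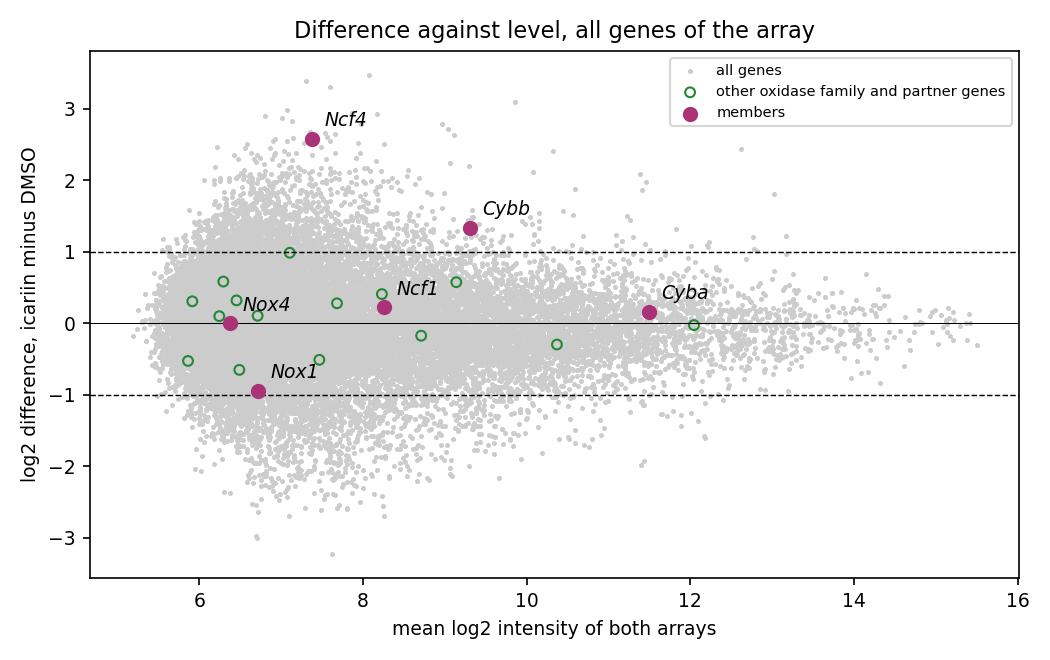
Log2 difference (icariin minus DMSO) against the mean log2 intensity of both arrays, with all 24210 genes in grey, the 6 genes as filled points and 15 other oxidase family and partner genes as open rings. Dashed lines mark 2-fold. Cybb (1.34) lies above the upper line where few genes of its level do, Ncf4 (2.58 as read, from a background reading with DMSO) lies in a widely scattered range, and no ring passes either line.

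The other genes of the oxidase system showed no such differences. Of 15 oxidase family, partner and maturation genes, none passed 2-fold in either direction, and the median log2 difference was 0.11, beside -0.02 over all genes. However, 7 of them were not above the silent-gene level on either array. Noxa1, the activator of Nox1, was one of these and read 54.1 and 67.1. Noxo1, its organiser, read 97.7 and 194 and was thus at least 1.15-fold higher. It was the only gene of the list to pass 2-fold once differences were centred on genes above the silent-gene level. The dual oxidase genes Duox1 and Duox2 and the inner ear oxidase gene Nox3 were not above the silent-gene level either.

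Genes for the Rac GTPases that switch the enzyme on were close to level. Rac1, used by most cells, read 4260 and 4188, a log2 difference of -0.02. Rac2, the form of blood cells, read 261 and 346, which is 1.33-fold higher and above the silent-gene level on both arrays. Cybc1, a chaperone that Cybb needs for its maturation in mouse and human, went from 462 to 689, 1.49-fold higher. Hvcn1, the proton channel that balances the charge moved by the phagocyte enzyme, was at least 1.25-fold lower (211 and 148). Poldip2, a partner of Nox4 and Cyba, was 1.23-fold lower. None of these partners reached the difference of Cybb.

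Signals that assemble the enzyme went both ways. Of 20 kinases, exchange factors and related regulators, 4 were higher and 3 lower by 2-fold or more, and the median of -0.03 changed its sign with the scaling. With values raised to the silent-gene level, 3 were higher and 1 lower by that fold. Prkcb, a protein kinase C that phosphorylates Ncf1 in neutrophils, went from 926 to 208, which is 4.46-fold lower. Prkcz, an atypical protein kinase C, was at least 1.97-fold lower (332 and 103). Prkcd, which also phosphorylates Ncf1, was level at 1715 and 1729. In the other direction, Syk, a tyrosine kinase downstream of Fc receptors, went from 206 to 519, 2.52-fold higher. Arhgdib, a GTPase regulator of blood cells, was 2.47-fold higher, and Prkca, read just above the silent-gene level with DMSO, 2.41-fold higher (152 and 365). Vav1, a Rac exchange factor of blood cells, read 60.9 and 165 and did not reach the silent-gene level.

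Enzymes downstream of superoxide differed little. None of 12 passed 2-fold, 9 were lower by any amount, Mpo among them, and the median was -0.24. However, 3 of the 12, the peroxidase genes Mpo, Epx and Lpo, were not above the silent-gene level on either array. Sod1, Sod2 and Sod3, the superoxide dismutases, had log2 differences of -0.33, -0.37 and -0.59. Gpx4, which reduces lipid peroxides, was 1.90-fold lower, with sequences at -1.16 and -0.69. Gpx1 was 1.27-fold higher. Mpo, the myeloperoxidase of neutrophil granules, read 110 and 85.5, below the silent-gene level on both arrays.

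Of 12 myeloid regulators known to act on phagocyte oxidase genes, 2 were higher and 1 lower by 2-fold or more, with a median of 0.15. With values raised to the silent-gene level, 1 was higher and 1 lower. Spi1, which encodes the myeloid factor PU.1, read 111 and 245, at least 1.46-fold higher. Its icariin value was under the 99th percentile of receptor genes there (271). Fli1, another ETS factor, was at least 2.02-fold higher (130 and 340). Tnf, a cytokine that primes the phagocyte enzyme, was 3.24-fold lower, from 731 to 226. Irf1, an interferon-induced factor, was 1.39-fold lower, and Ifng was not above the silent-gene level. The regulators thus did not share 1 direction.

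RefSeq start sites on GRCr8 were given for 5 of the 6 genes, all but Ncf4. Sequences of the 250 bases before the start are shown for Cybb, which was higher, for Cyba and Ncf1, which were near level, and for Nox4. They are written 5′ to 3′ on the strand of the gene, and capitals mark GAGGAA on either strand, a motif read by ETS factors such as PU.1.
Cybb, chrX:16065066-16065315, minus strand: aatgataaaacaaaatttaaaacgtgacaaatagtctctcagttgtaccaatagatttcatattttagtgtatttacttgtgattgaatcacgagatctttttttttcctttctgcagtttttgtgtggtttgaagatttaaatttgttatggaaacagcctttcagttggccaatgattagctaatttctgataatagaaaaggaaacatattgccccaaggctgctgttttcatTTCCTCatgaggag
Cyba, chr19:67404215-67404464, minus strand: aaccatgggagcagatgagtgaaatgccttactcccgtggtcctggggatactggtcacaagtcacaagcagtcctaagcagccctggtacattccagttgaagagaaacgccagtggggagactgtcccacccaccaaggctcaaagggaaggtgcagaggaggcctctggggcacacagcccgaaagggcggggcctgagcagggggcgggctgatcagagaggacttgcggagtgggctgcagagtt
Ncf1, chr12:28121635-28121884, plus strand: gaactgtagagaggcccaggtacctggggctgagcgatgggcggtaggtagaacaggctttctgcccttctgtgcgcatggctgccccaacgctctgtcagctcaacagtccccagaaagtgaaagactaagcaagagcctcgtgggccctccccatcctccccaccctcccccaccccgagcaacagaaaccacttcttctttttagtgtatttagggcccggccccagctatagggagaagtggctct
Nox4, chr1:150313639-150313888, plus strand: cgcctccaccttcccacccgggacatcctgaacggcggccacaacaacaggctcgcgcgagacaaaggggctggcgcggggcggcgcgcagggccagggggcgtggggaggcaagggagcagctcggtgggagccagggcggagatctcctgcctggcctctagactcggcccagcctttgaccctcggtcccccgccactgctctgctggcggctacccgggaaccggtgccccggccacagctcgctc
Cybb held the motif once, from base 14 to base 9 before its start and on the opposite strand, and Nox1 held it once, from base 37 to base 32. No match to GAGGAA was found in the windows of Cyba, Ncf1 and Nox4, and shorter ETS motifs were not searched. Of all 33469 promoter windows of the same length, 23.3% held the motif. GGGCGG, the core of GC boxes, was found in Cyba, Ncf1 and Nox4 and in 30.5% of all windows. CCAAT was found in Cybb alone of the 5, and in 34.0% of all windows. The Cybb window held 32.0% G and C and the Nox4 window 72.8%, beside a median of 51.2%. TGANTCA, the palindromic motif of AP-1 factors, was found once in Cybb and in 6.34% of all windows. All motifs were searched on both strands. These matches describe the letters of the windows and were not tested as sites.

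Many markers of macrophages moved with Cybb and Ncf4. Of 20 macrophage and monocyte markers, 11 were higher by 2-fold or more and none was lower by that fold, with a median of 1.19. Their summed intensity went from 6889.9 to 20546, and single markers ranged from 65.3 to 1423 with DMSO and from 52.8 to 5597 with icariin. Such a sum, here and for the lists below, weighs the brightest markers most and does not speak for each marker. Cd68, a lysosomal protein of macrophages, went from 1423 to 5597. Lyz2, which encodes lysozyme, was 8.58-fold higher, and C1qa and C1qc, chains of complement C1q, 6.19-fold and 4.33-fold. C1qb and Ctss, also above the silent-gene level on both arrays, were 2.59-fold and 2.87-fold higher. Cd14, Csf1r and Adgre1, above it on both arrays as well, differed less than 2-fold, with log2 differences of 0.29, 0.57 and 0.85. The defining markers Cd163, Fcgr1a, Fcgr3a and Marco were not above the silent-gene level on either array. With values raised to the silent-gene level, 8 markers were higher by 2-fold or more, and the median of the list was 0.71.

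Markers shared by all leukocytes moved as well. Of 14 pan-leukocyte markers, 7 were higher and none lower by 2-fold or more, with a median of 1.01 and summed intensities of 2848.0 and 5758.3. With values raised to the silent-gene level, 4 were higher by that fold, and the median was 0.52. Single markers ranged from 64.2 to 339 and from 115 to 849. The leukocyte tetraspanin Cd53 went from 243 to 849. Ptprc, which encodes CD45, read 91.9 and 192 and was thus at least 1.14-fold higher. Its icariin value was under the 99th percentile of receptor genes there (271). Rac2 and Arhgdib belong to this list as well as to the oxidase lists. Sums for the granulocyte list were nearly equal. Of 16 neutrophil and eosinophil markers, 2 were higher and 3 lower by 2-fold or more, with summed intensities of 2226.6 and 2229.5, ranges of 47.2 to 394 and 52.1 to 352, and 9 markers not above the silent-gene level on either array. With values raised to that level, none was higher and 1 was lower by 2-fold or more. Of 13 lymphocyte markers, 2 were higher and 1 lower by that fold as read, and none in either direction with values raised, with summed intensities of 1091.4 and 1417.2, ranges of 59.2 to 171 and 56.2 to 262, and 10 not above it.

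Markers of marrow stroma were near level. Of 18, 1 was lower by 2-fold or more and none was higher by that fold, with a median of 0.17, summed intensities of 167000.2 and 186288.9, and ranges of 84.7 to 33820 and 78.3 to 39096. Col1a1, Thy1 and Vim were bright on both arrays, so both cultures held these transcripts. A reading of a whole culture does not assign them to a cell type. Lepr was not above the silent-gene level on either array. Vcam1, an adhesion molecule of marrow stroma, was at least 2.38-fold lower (401 and 79.6). In RNA of a whole culture, a change in the number of cells of a type and a change of RNA per cell cannot be told apart. The part of macrophage and leukocyte markers in the differences of Cybb and Ncf4 was not tested.

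**Figure D3:**
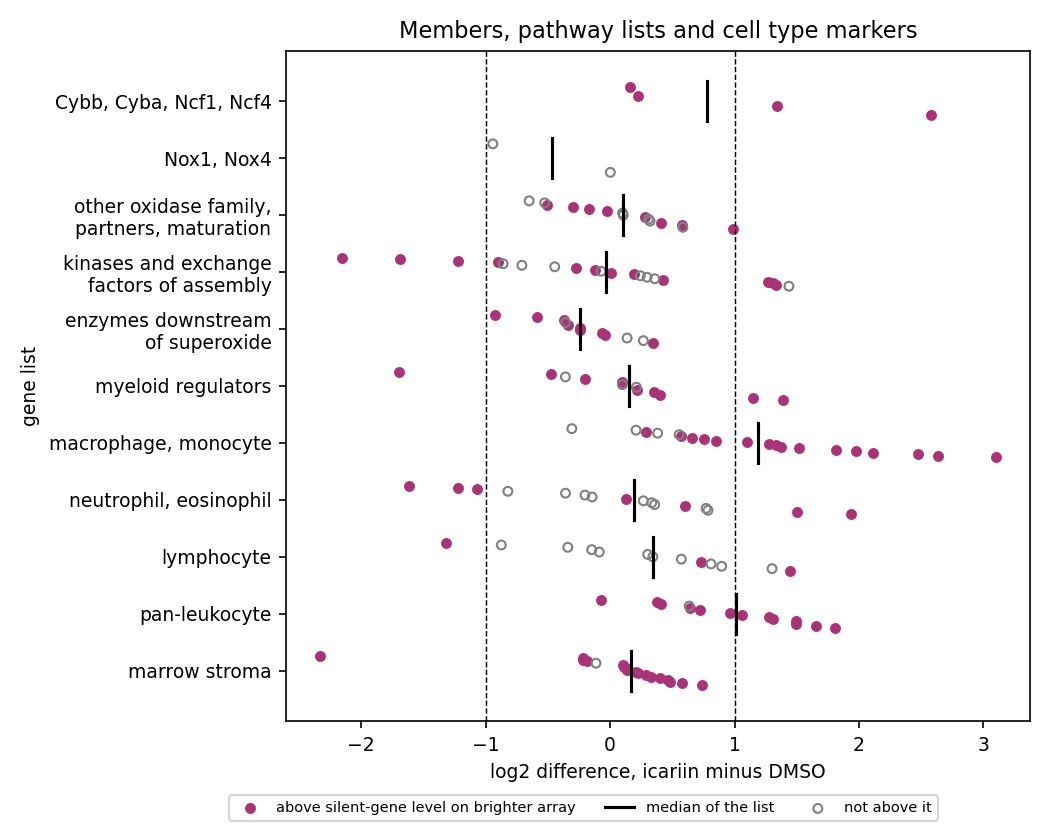
Log2 difference (icariin minus DMSO) of each gene of the members, the oxidase pathway lists and the cell type marker lists. Filled points were above the silent-gene level on the brighter array, open rings were not, bars are list medians and dashed lines mark 2-fold. On values as read, the medians of macrophage (1.19) and pan-leukocyte (1.01) markers lie at or beyond the upper line, those of the oxidase pathway and regulator lists between -0.24 and 0.15. With values raised to the silent-gene level, the macrophage and pan-leukocyte medians were 0.71 and 0.52, less than 2-fold.

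Genes with the most similar pair of values were sought by distance on the log2 scale over the 2 arrays. Nearest to Cybb were Klf4, a zinc finger factor, and Tap1, a subunit of the peptide transporter, at distances of 0.09 and 0.10. Among the 3 genes nearest to Ncf4 were Cyp26c1, a retinoic acid hydroxylase, at 0.26 and Krt17, a keratin, at 0.32, with DMSO values at background. Cyba lay nearest to Dnajc5 at 0.01, and Ncf1 to Thumpd3 at less than 0.01. Over 2 values many genes lie close by, so the distance describes the likeness and no more.

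The direction of the difference in Cybb, Cyba, Ncf1 and Ncf4 was the same under each of the other ways of processing the values. The log2 difference ran from 1.21 to 1.43 for Cybb, from 0.16 to 0.24 for Cyba, from 0.18 to 0.29 for Ncf1 and from 1.28 to 2.70 for Ncf4. Nox1 ran from -0.98 to 0, and Nox4 from -0.02 to 0.05.

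**Figure D4:**
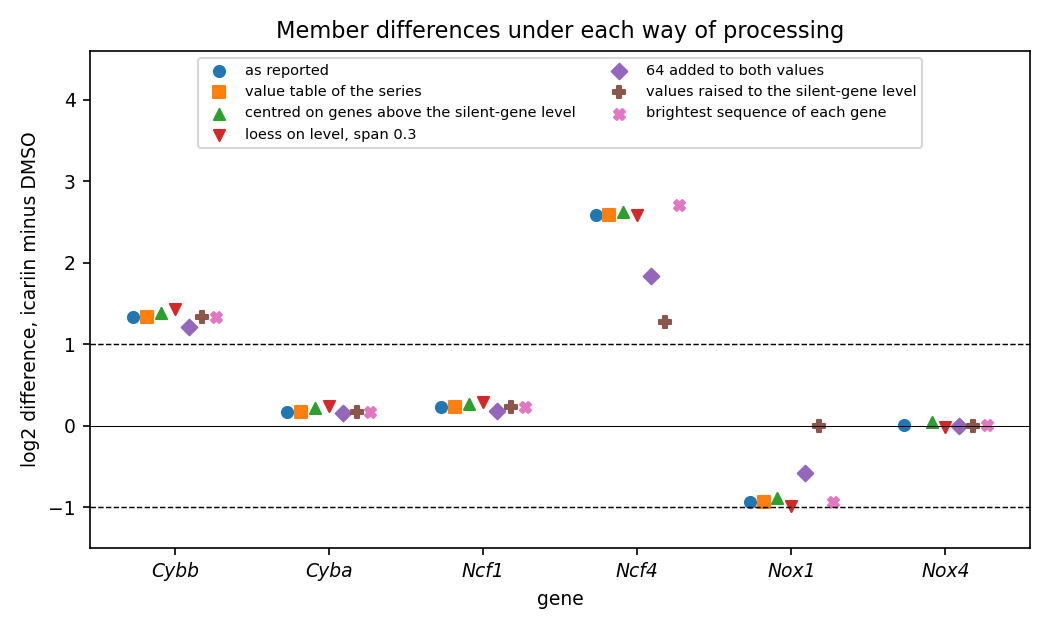
Log2 difference (icariin minus DMSO) of the 6 genes as reported and under 6 other ways of processing, with 1 symbol for each. Nox4 has no value in the value table of the series. Cybb stays above the 2-fold line (dashed) in each, Ncf4 drops to 1.28 with values raised to the silent-gene level, and Nox1 goes to 0 there.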

How the data were processed

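Total RNA of 2 cultures was hybridised to Roche NimbleGen rat arrays. The intensity values deposited by the authors were normalized by quantile normalization and RMA in NimbleScan, on a linear scale. The sources used here do not give its version or background step. The deposited files also hold a standard error of unstated scale, listed as other, which was not used. Quantile normalization would hide a change of all transcripts in 1 direction.

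Sequences were named by gene identifier (20681) or accession (31) through RefSeq (GRCr8), and 5707 kept the symbol of the file. Log2 values were averaged per gene, and differences are icariin minus DMSO. The call rule was 2-fold. With 1 array per group no test exists. Python 3.11.15, pandas 2.3.3 and statsmodels 0.14.6 (lowess, span 0.3) were used, and the gene step was tested on simulated data. Members and lists were chosen with earlier results of these data known. Named were the members and their 3 nearest genes, up to 4 genes per list with the largest difference above the silent-gene level, and Rac1, Rac2, Noxa1, Noxo1, Spi1, Cd68, Ptprc and Mpo. Of these the text gives a selection, some items of the rule not being reported here, and other genes in it were chosen after their values were seen. Alternatives tried were the series' own value table, centring, lowess, an offset of 64, values raised to the silent-gene level, the brightest or a left-out sequence, folds of 1.5 and 3, and other silent-gene levels.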

Additional observations from a re-analysis of the deposited data

How the results depend on the processing

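No paired analysis was possible because each group has 1 array. Of 71 recomputed values of the members, their counts and their levels, 63 moved by less than the pooled SD between sequences of a gene (0.61) or, for counts, by 1.5 times at most. With 64 added to both values, the log2 difference of Ncf4 was 1.84. With values raised to the silent-gene level, that of Ncf4 was 1.28, that of Nox1 was 0 and the gap between the phagocyte subunits and Nox4 and Nox1 was 0.75, since dim values are set equal there. At 1.5-fold, 1 member was lower, namely Nox1, and at 3-fold 1 was higher, namely Ncf4, both on values as read. The shares of all genes past 1.5-fold and 3-fold are not given, so these counts stand without a background. Nox1 was above background on neither array, and the bound for Ncf4, at least 2.42-fold, does not reach 3-fold. With keratin-associated, crystallin, testis and sperm genes as the silent class, 1 member, Cyba, was above the level with DMSO and 1 with icariin, but that class holds genes that these cells express. With the 99th percentile the members above were the same in number, 3 and 4. In the value table the gap was 2.02, because Nox4 is not in it. Of 497 recomputed values of lists and other named genes, 48 moved, and no difference past 2-fold changed sign. Signal over background limits Ncf4 on the DMSO array and Nox1 and Nox4 on both.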

Other observations

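A pair of adaptor genes related to Ncf1 was looked up after the values had been seen. Sh3pxd2b, which the array annotates as similar to neutrophil cytosolic factor 1, encodes the scaffold Tks4, and Sh3pxd2a encodes Tks5. Both proteins organise podosomes and have been tied to Nox enzymes other than Cybb. Sh3pxd2b read 595 and 445, a log2 difference of -0.42, and Sh3pxd2a read 175 and 193, a log2 difference of 0.14. Both were above the silent-gene level on both arrays, and neither differed 2-fold.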
